A study of Mus musculus with 108 samples.

Results

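The daily rhythm of the control liver was read from 18 of the 108 libraries of the series, chosen by their labels as liver of mice labelled Bmal1-flox and compared with each other over time of day only. These were male C57BL/J mice, 8 to 12 weeks old, housed in a cycle of 12 h light and 12 h dark and fed freely, and 3 livers were sampled at each of 6 zeitgeber times (ZT, hours after lights on), ZT2, ZT6, ZT10, ZT14, ZT18 and ZT22. All 18 carry the floxed Bmal1 allele without the knockout label that the other genotype of the series has. The labels name neither a Cre driver nor the cells it acts in, and they do not tie samples to single animals. The p-values therefore reflect sample-to-sample spread, part of which may be technical. The series title asks how a clock in the intestine shapes rhythmic liver metabolism, and the present comparison gives the times at which liver functions were high and low in the control group.

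The circadian clock of liver cells is a loop of transcription and translation. BMAL1 (gene symbol Arntl) pairs with CLOCK or NPAS2 and switches on the Period and Cryptochrome genes, whose proteins then shut the pair down, while the REV-ERB and ROR receptors lower and raise Arntl itself. Through output factors such as DBP, TEF, HLF and E4BP4 (Nfil3), and through signals of feeding, body temperature and hormones, many liver genes of metabolism follow the day. Mice are active and eat mostly in darkness, so ZT2 to ZT10 is their rest phase and ZT14 to ZT22 their active phase.

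Sequencing depth lay between 14428000 and 23428000 counts per liver (rounded). The hepatocyte markers were high in every library (mean log2 CPM, the count scaled to the library's total, of 11.55 to 12.66 over 10 genes), as the tissue label says. Among the 18 livers, 2 stood apart, ZT6 number 1 and ZT22 number 1. Their mean log2 CPM over 20 macrophage markers was 8.06 and 8.15 against 1.48 to 5.34 in the other 16, and over the cell cycle genes 3.71 and 3.23 against -0.84 to 0.19. Cyp2a5, a liver P450 enzyme, stood at 4.14 and 2.91 CPM in them and from 230 to 1520 CPM in the other 16. In bulk tissue, fewer cells of a type and less RNA per cell cannot be told apart. The first principal component, with 50.2% of the variance, separated these 2 livers from the rest, and the common biological coefficient of variation was 0.477 with 18 libraries and 0.298 with 16. Counts are therefore given with all 18 libraries and with the 16 that remain without these 2. A gene called with 18 libraries is given by that fit with the adjusted p of the other beside it, and a gene called only with 16 by the fit of 16. Kidney markers summed to 17.2 CPM in ZT14 number 1 and 23.1 CPM in ZT22 number 3, to 2.26 CPM in ZT14 number 3 and to under 1 CPM in the other 15.

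**Figure D1:**
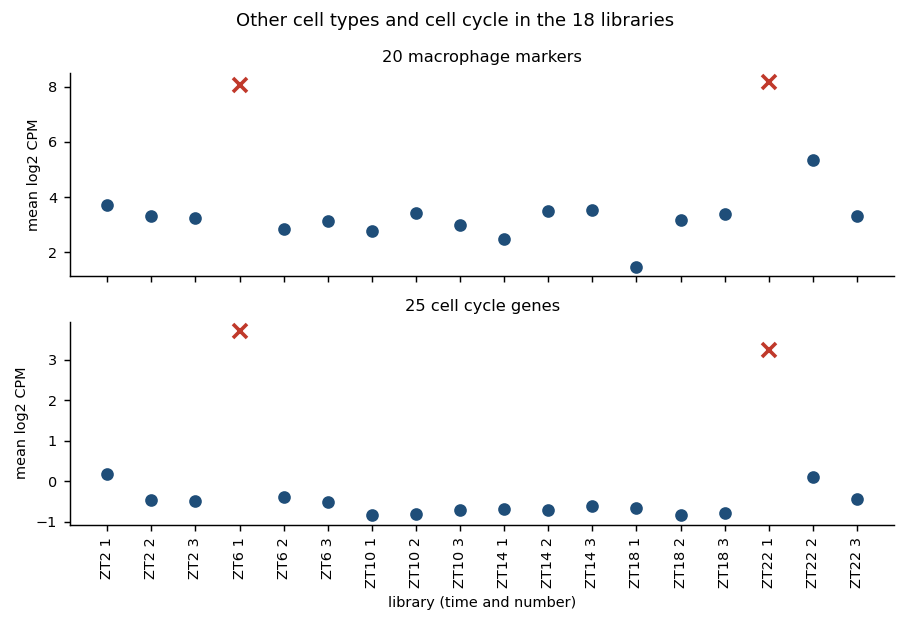
Mean log2 CPM of the 20 macrophage markers (top) and of the 25 cell cycle genes (bottom) in each of the 18 control livers, ordered by time and number. Points are libraries, and the 2 red crosses, ZT6 1 and ZT22 1, stand at 8.06 and 8.15 for macrophage markers, while no other library passes 5.34.

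A 24 h cosine was fitted to every gene, which gives an amplitude (the fitted log2 distance from the mean to the peak) and a peak time in hours after lights on. With 18 libraries, 73 of 15249 genes were called (0.479%) at an adjusted p under 0.05 in edgeR's quasi-likelihood test, and with 16 libraries 1220 of 15197 genes (8.03%). All 73 were among the 1220, and their peak moved by a median of 0.23 h and by at most 0.93 h between the fits. Amplitudes of the 73 ran from 0.40 to 3.56 log2 units with a median of 0.97, and the median over the 1220 was 0.61. Leaving out ZT6 number 1 alone gave 726 calls, ZT22 number 1 alone 316, and each other library 24 to 73. Of the 31 genes named here that were called with 18 libraries, 15 stayed called whichever single library was left out (Arntl, Npas2, Cry1, Nr1d1, Nr1d2, Egr1, Gpcpd1, Upp2, G0s2, Tsku, Lrfn3, Id3, Tubb2a, Ppard and Dtx4). The other 16, Dbp, Per3, Alas1 and Stip1 among them, lost the call without at least 1 library, with highest adjusted p-values of 0.0501 to 0.146. The peaks gathered in 2 parts of the day. Of the 1220, 318 peaked in the first 6 h after lights on, 200 in the rest of the light phase, 434 in the first 6 h of darkness and 268 in the last. In bins of 2 h the fullest was 16 to 18 h with 217 genes, a second rise stood at 4 to 6 h with 160, and the fewest, 30, peaked between 10 and 12 h. Of the 73, 16, 4, 41 and 12 fell in the same 4 windows.

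**Figure D2:**
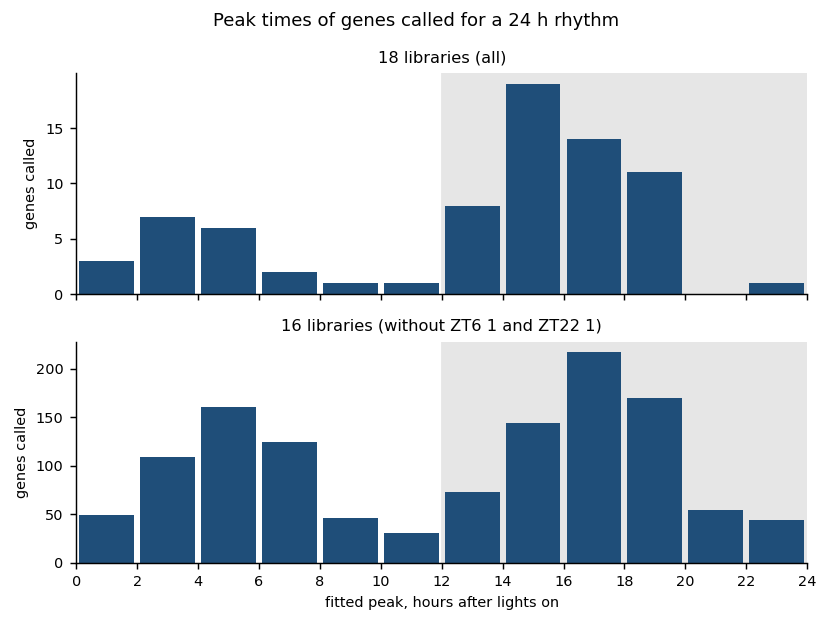
Number of genes called for a 24 h rhythm by fitted peak time in bins of 2 h, with all 18 control livers (top) and with 16 (bottom); grey marks darkness. With 16 livers the tallest bars are 217 genes at 16 to 18 h and 160 genes at 4 to 6 h.

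Of the 20 clock genes tested, 7 were called with 18 libraries (Arntl, Npas2, Cry1, Per3, Nr1d1, Nr1d2 and Dbp) and 14 with 16, among them also Ciart, Per1, Tef, Nfil3, Bhlhe41 and Hlf. Clock, Arntl2, Per2, Cry2, Rora and Bhlhe40 were called in neither fit. Over all genes the shares called were 0.479% with 18 libraries and 8.03% with 16. Since clock genes are known to cycle in liver, their order over the day serves mainly as a description. A shift common to all time labels would leave this order unchanged, so it does not check the absolute times.

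The activators were high in darkness. Gene positions are given on GRCm38 from GENCODE M21. Arntl (chr7:113207465-113314126), which encodes BMAL1, stood at 2.7, 2.78 and 3.98 CPM at ZT2, 3.66, 1.97 and 1.98 at ZT6, 3.62, 3.73 and 5.91 at ZT10, 18.9, 11.7 and 10.9 at ZT14, 17, 14.9 and 14.7 at ZT18, and 14.7, 21.5 and 21.8 at ZT22. Each of the 9 dark-phase livers was above each of the 9 light-phase livers, the 2 that stand apart included. The fit gave an amplitude of 1.61 log2 (SE 0.19), a peak at 18.1 h (SE 0.39 h) and an adjusted p of 0.00205 (0.00015 with 16 libraries). Npas2 (chr1:39193731-39363236), a partner of BMAL1, was counted at 0.64, 0.278 and 0.539 CPM at ZT2, 0.274, 0 and 0.228 at ZT6, 0, 0 and 0.154 at ZT10, 4.93, 3.37 and 0.171 at ZT14, 7.73, 11.1 and 9.31 at ZT18, and 1.6, 9.39 and 2.74 at ZT22, close to the limit of detection by day. Its 3 values at ZT18 were all above those of ZT2, ZT6 and ZT10, while 1 of the 3 values at ZT14 lay within them. Npas2 had an amplitude of 3.32 log2 (SE 0.47), a peak at 18.8 h (SE 0.50 h) and an adjusted p of 0.00814 (0.000393 with 16 libraries). Clock, the other partner, stayed between 15.7 and 38.8 CPM with overlapping times (amplitude 0.21 log2, adjusted p = 0.416, and 0.246 with 16 libraries).

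The repressors followed one another. Nr1d1 (chr11:98767932-98775333), the gene of REV-ERB alpha, which represses Arntl, had its highest values early in the light, with 48.5, 60.7 and 39.2 CPM at ZT2, 12.9, 23.3 and 21.2 at ZT6, 15.4, 18.3 and 4.73 at ZT10, 1.79, 1.89 and 1.97 at ZT14, 9.52, 2.51 and 2.54 at ZT18, and 8.72, 10.5 and 3.57 at ZT22. The 3 values at ZT2 were above all 15 others, and those at ZT14 were the lowest. Nr1d1 showed an amplitude of 1.93 log2 (SE 0.29), a peak at 3.6 h (SE 0.57 h) and an adjusted p of 0.0106 (0.00284 with 16 libraries). Nr1d2 (chr14:18204054-18239127), the gene of REV-ERB beta, was at 67, 90.2 and 70 CPM at ZT2, 45.9, 94.4 and 66 at ZT6, 45, 54.2 and 29.5 at ZT10, 14, 8.35 and 20.9 at ZT14, 10.7, 3.14 and 7.69 at ZT18, and 20, 11.1 and 17.4 at ZT22, with no overlap between the light and the dark livers. Its fit had an amplitude of 1.76 log2 (SE 0.20), a peak at 5.4 h (SE 0.37 h) and an adjusted p of 0.00205 (3.84e-05 with 16 libraries). Per3 (chr4:151003652-151044665), a Period gene, peaked later in the day, at 8.0 h (SE 0.56 h), with 22.6, 45 and 14.2 CPM at ZT2, 8.78, 67.1 and 37.6 at ZT6, 83.8, 57.4 and 28.6 at ZT10, 17.8, 14.9 and 25.6 at ZT14, 5.94, 5.92 and 4.45 at ZT18, and 2.01, 1.02 and 3.23 at ZT22. The ZT6 values of Per3 spread from 8.78 CPM in number 1, a liver that stands apart, to 67.1 CPM, and all 3 values at ZT22, 1.02 to 3.23 CPM, lay below the other 15 (amplitude 2.1 log2, SE 0.33, adjusted p = 0.0223, and 0.00212 with 16 libraries). Per1 was called only with 16 libraries, with an amplitude of 0.96 log2 (SE 0.20), a peak at 6.3 h (SE 0.66 h) and an adjusted p of 0.0164. Per2 was called in neither fit and stood from 2.39 to 11.9 CPM at ZT22 and from 50.7 to 106 CPM at ZT14 (fitted peak 10.5 h, adjusted p = 0.129, and 0.0591 with 16 libraries). Cry1 (chr10:85131700-85185064), a Cryptochrome gene, came last, with 2.99, 3.29 and 3.23 CPM at ZT2, 8.35, 6.22 and 7.37 at ZT6, 16.6, 12.2 and 22.8 at ZT10, 34.4, 36 and 22.6 at ZT14, 27.2, 50.3 and 37.5 at ZT18, and 10.4, 10.2 and 24.9 at ZT22. It was lowest at ZT2, where all 3 values lay below the other 15, and all 3 values at ZT18 lay above those of ZT10 and ZT22, while the lowest at ZT14, 22.6 CPM, fell within them. For Cry1 there was an amplitude of 1.61 log2 (SE 0.18), a peak at 15.6 h (SE 0.43 h) and an adjusted p of 0.00205 (0.000288 with 16 libraries). Ciart, a repressor of the BMAL1 complex, was called only with 16 libraries and had an amplitude of 1.75 log2 (SE 0.32), a peak at 7.9 h (SE 0.72 h) and an adjusted p of 0.0136.

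Among output factors, Dbp (chr7:45705088-45710203), a PAR bZIP activator of liver enzyme genes, stood at 55.8, 92.9 and 21.6 CPM at ZT2, 3.41, 70.2 and 83.8 at ZT6, 49, 82.2 and 26.5 at ZT10, 3.58, 4.35 and 8.8 at ZT14, 3.02, 2.15 and 2.43 at ZT18, and 0.57, 0.469 and 1.37 at ZT22. The ZT6 value of 3.41 belongs to one of the livers that stand apart, and the other 8 light-phase values all exceeded the 9 dark-phase values. Dbp had an amplitude of 2.98 log2 (SE 0.51), a peak at 6.4 h (SE 0.55 h) and an adjusted p of 0.0299 (0.00225 with 16 libraries). Tef, a close relative, peaked at 7.4 h with 16 libraries (amplitude 1.32 log2, SE 0.19, adjusted p = 0.00262), and missed the call with 18 (adjusted p = 0.0568). Hlf, the third of this family, had a lower amplitude of 0.41 log2 and a peak at 10.8 h with 16 libraries (adjusted p = 0.0484). Nfil3, the gene of E4BP4 that competes with these factors for the same sites, peaked on the other side of the day, at 18.4 h with 16 libraries (amplitude 0.89 log2, SE 0.16, adjusted p = 0.00586, against 0.343 with 18). Bhlhe41, the gene of DEC2, had an amplitude of 1.97 log2 (SE 0.36), a peak at 5.7 h (SE 0.75 h) and an adjusted p of 0.00748 with 16 libraries. Usp2, a deubiquitinase of clock proteins, was called with 16 libraries, at 8.3 h (amplitude 1.55 log2, adjusted p = 0.00695).

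**Figure D3:**
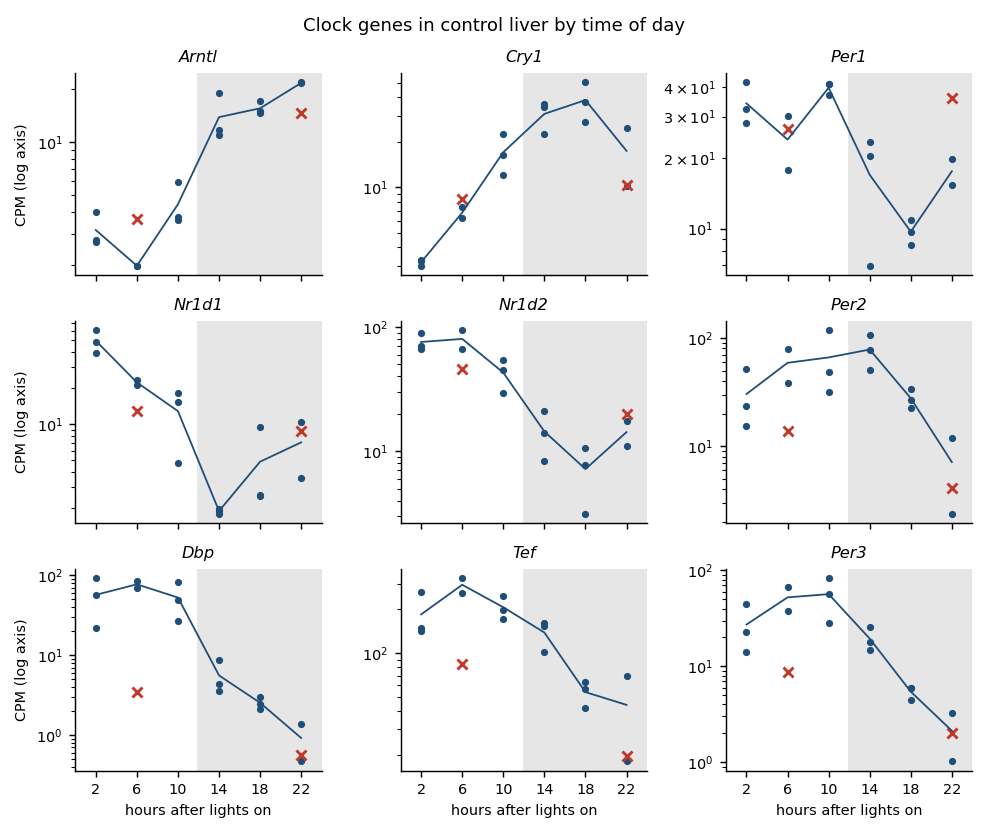
CPM on a log axis of 9 clock genes against hours after lights on in the control livers; points are libraries, red crosses the 2 livers that stand apart, lines join the means of the other 16, and grey marks darkness. Nr1d1 tops at ZT2, Dbp and Per3 by day, Cry1 at ZT18 and Arntl at ZT22.

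Promoter sequence was set beside these times as a description. RefSeq promoter windows (GRCm38.p6, 250 bases before to 50 after a start) were held for 17 of the 20 clock genes and were searched on both strands. The letters CACGTG, the E-box through which BMAL1 and its partner act, were in 7.15% of all 32851 windows and in 11.3% of the 11111 tested genes with a window, and 5 of the 17 clock genes held them, with 3 copies in Ciart. The letters TTATGTAA, a D-box bound by DBP, TEF, HLF and E4BP4, were in 0.938% of the windows and, of the 17, in Per3 alone, in 2 copies. The letters TAGGTCA, an element read by REV-ERB and ROR receptors, were in 2.61% of the windows and in Arntl and Nfil3. The matches upstream of the start are shown 5′ to 3′ on the gene's strand because these genes are the ones whose peaks are ordered above; capitals mark the motif, and in Nfil3 it reads on the opposite strand. Within the printed stretches no match overlaps another.
Ciart: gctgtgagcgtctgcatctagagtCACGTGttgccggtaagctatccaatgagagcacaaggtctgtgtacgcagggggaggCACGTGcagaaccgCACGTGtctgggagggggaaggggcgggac
Per1: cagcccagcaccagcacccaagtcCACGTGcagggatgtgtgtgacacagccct
Bhlhe41: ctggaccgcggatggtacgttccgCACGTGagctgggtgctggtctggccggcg
Tef: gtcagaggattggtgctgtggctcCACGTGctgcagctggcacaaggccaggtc
Cry1: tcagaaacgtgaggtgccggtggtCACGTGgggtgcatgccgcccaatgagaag
Per3: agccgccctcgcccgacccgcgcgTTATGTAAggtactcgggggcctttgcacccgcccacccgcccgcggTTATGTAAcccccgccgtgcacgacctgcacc
Nfil3: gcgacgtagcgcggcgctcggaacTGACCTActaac
The windows lie at chr3:95882243-95882368 (minus strand, Ciart), chr11:69098759-69098812 (plus, Per1), chr6:145865544-145865597 (minus, Bhlhe41), chr15:81802522-81802575 (plus, Tef), chr10:85185085-85185138 (minus, Cry1), chr4:151044792-151044894 (minus, Per3) and chr13:52981040-52981075 (minus, Nfil3). Of the 5 genes with an E-box here, Ciart, Per1, Bhlhe41 and Tef had fitted peaks between 5.65 and 7.85 h with 16 libraries and Cry1 at 15.7 h. Over all genes called with 16 libraries and held in the promoter table, CACGTG was in 13.5% of the 237 peaking at 0 to 6 h, 18.7% of 150 at 6 to 12 h, 12.8% of 296 at 12 to 18 h and 13.1% of 213 at 18 to 24 h, shares that were not tested against each other.

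Early in the rest phase, 2 genes of the insulin and fasting list peaked in both fits, Egr1 and Trib3. Egr1, an immediate early transcription factor, stood at 28.4, 73.5 and 41.6 CPM at ZT2, 16.2, 2.05 and 4.63 at ZT6, 6.55, 5.87 and 2.88 at ZT10, 0.597, 1.66 and 2.31 at ZT14, 0.448, 4.71 and 2.02 at ZT18, and 21.5, 12.9 and 21.6 at ZT22. Its values at ZT2 were above those of all other times, and those at ZT14 and ZT18 were all under 5 CPM. Egr1 had an amplitude of 2.3 log2 (SE 0.34), a peak at 2.1 h (SE 0.61 h) and an adjusted p of 0.0103 (0.00586 with 16 libraries). Trib3, a pseudokinase gene that responds to fasting and stress, had an amplitude of 1.35 log2 (SE 0.22), a peak at 2.4 h (SE 0.62 h) and an adjusted p of 0.0256 (0.000304 with 16 libraries). Tcp11l2 had an amplitude of 1.0 log2 (SE 0.15), a peak at 1.6 h (SE 0.60 h) and an adjusted p of 0.0151 (0.00298 with 16 libraries), and its 3 values at ZT22, 21.1 to 30.4 CPM, did not overlap the 4.7 to 7.09 CPM at ZT14. Of 24 genes of the insulin and fasting list, 2 were called with 18 libraries (8.33%) and 7 with 16 (29.2%), against 0.479% and 8.03% of all genes, and the other 17 in neither. Of these 7, Egr1, Trib3, Sesn1 (2.8 h), Ppargc1a (3.1 h), Insr, the insulin receptor (5.6 h), and Foxo3, a transcription factor held back by insulin (6.1 h), peaked in the light, and Creb3l3 (14.5 h) in the dark. Pck1 and G6pc, the best known genes of glucose production, were called in neither fit (adjusted p = 0.585 and 0.81 with 16 libraries).

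Single genes of lipid handling and autophagy also peaked in the light with 16 libraries. Lpin1 (chr12:16535669-16610966), a phosphatidate phosphatase that also acts in fatty acid oxidation, stood at 156, 199 and 387 CPM at ZT2, 55.8, 169 and 72.3 at ZT6, 62.6, 78.4 and 187 at ZT10, 40.3, 26.8 and 14.6 at ZT14, 26.7, 50.8 and 36.7 at ZT18, and 210, 143 and 69.2 at ZT22. The dark values at ZT14 and ZT18 were all below the light values of every time. Lpin1 had an amplitude of 1.5 log2 (SE 0.25), a peak at 3.7 h (SE 0.61 h) and an adjusted p of 0.00586 with 16 libraries, and missed the call with 18 (adjusted p = 0.0601). Lpin2, its relative, had an amplitude of 0.98 log2 (SE 0.19), a peak at 4.4 h (SE 0.66 h) and an adjusted p of 0.00805. Of 26 autophagy and lysosome genes, 0 were called with 18 libraries and 4 (15.4%, against 8.03% of all genes) with 16. Among these, Ulk1, the kinase that starts autophagy, peaked at 3.3 h (amplitude 0.59 log2, adjusted p = 0.00236), Atg14 at 3.9 h (amplitude 0.55 log2, adjusted p = 0.00482) and Map1lc3b at 5.1 h, while Lipa, the lysosomal acid lipase, peaked at 18.5 h. Abcg5 and Abcg8, which together form the sterol exporter, peaked at 3.7 and 3.8 h (adjusted p = 0.0423 and 0.0256 with 16 libraries). Cpt1a, which admits fatty acids to mitochondria, peaked at 5.5 h (amplitude 0.44 log2, adjusted p = 0.0261). Angptl4, an inhibitor of lipoprotein lipase that rises with fasting, peaked at 6.2 h (amplitude 1.17 log2, adjusted p = 0.0174). The list of the glucocorticoid receptor and its targets had 22 genes tested. Of these, 0 were called with 18 libraries and 5 with 16 (22.7%, against 8.03% of all genes). They were Klf9 at 2.9 h, Lpin1, Errfi1 at 4.7 h, Per1 and, at 11.6 h, Fkbp5. Slc38a2, an amino acid importer, led the amino acid list with an amplitude of 0.75 log2 (SE 0.10), a peak at 3.6 h (SE 0.53 h) and an adjusted p of 0.000738.

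Other genes peaking before 6 h had larger amplitudes. Gpcpd1 (chr2:132529082-132587729), which splits glycerophosphocholine, stood at 141, 150 and 100 CPM at ZT2, 33.7, 195 and 99.9 at ZT6, 62.4, 98.7 and 60.7 at ZT10, 19.9, 19.6 and 20.6 at ZT14, 17.6, 9.59 and 11.3 at ZT18, and 51.1, 50.1 and 28 at ZT22. Dark values at ZT14 and ZT18 were all below every light value. Gpcpd1 had an amplitude of 1.72 log2 (SE 0.21), a peak at 4.8 h (SE 0.41 h) and an adjusted p of 0.00253 (9.36e-07 with 16 libraries). Upp2 (chr2:58567298-58792971), a uridine phosphorylase of liver, was at 597, 608 and 536 CPM at ZT2, 549, 845 and 1080 at ZT6, 465, 526 and 517 at ZT10, 193, 154 and 252 at ZT14, 117, 81.3 and 80.5 at ZT18, and 429, 134 and 398 at ZT22, with ZT18 lowest and all light values above all dark ones. Upp2 had an amplitude of 1.41 log2 (SE 0.18), a peak at 5.3 h (SE 0.44 h) and an adjusted p of 0.00415 (3.38e-05 with 16 libraries). Arhgef26, a guanine nucleotide exchange factor, had an amplitude of 0.87 log2 (SE 0.14), a peak at 5.0 h (SE 0.58 h) and an adjusted p of 0.0208 (0.000111 with 16 libraries).

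**Figure D4:**
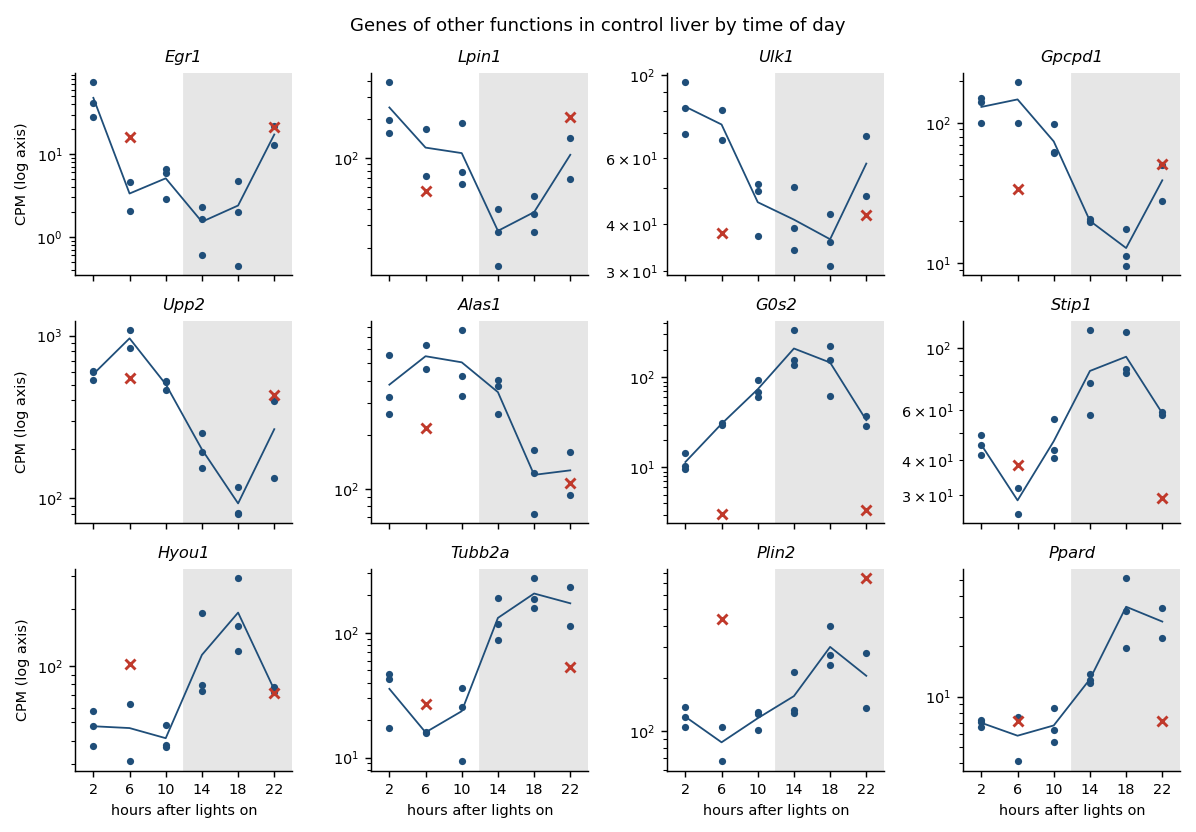
CPM on a log axis of 12 genes of other functions against hours after lights on, drawn as for the clock genes, with red crosses for the 2 livers that stand apart and lines through the means of the other 16. Fitted peaks of Egr1, Lpin1, Ulk1, Gpcpd1 and Upp2 lie in the light, and those of G0s2, Stip1, Hyou1, Tubb2a, Plin2 and Ppard in darkness. Values do not split wholly by light: Egr1 is higher at ZT22 than at ZT10, Lpin1 at ZT22 overlaps ZT6 and ZT10, and G0s2 is higher at ZT10 than at ZT22.

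Alas1 peaked in the middle of the day in both fits. Alas1 (chr9:106233455-106248654), the rate-limiting enzyme of heme synthesis, stood at 260, 556 and 325 CPM at ZT2, 217, 629 and 467 at ZT6, 427, 328 and 765 at ZT10, 260, 403 and 374 at ZT14, 164, 122 and 72.8 at ZT18, and 108, 92.5 and 161 at ZT22. Values at ZT18 and ZT22 were all below those of the other times. Alas1 had an amplitude of 1.14 log2 (SE 0.21), a peak at 7.9 h (SE 0.65 h) and an adjusted p of 0.0461 (0.00262 with 16 libraries). Por, which hands electrons to P450 enzymes, peaked at 8.3 h with 16 libraries (amplitude 0.73 log2, adjusted p = 0.00745). Of 29 Cyp1, Cyp2 and Cyp3 enzymes, 0 were called with 18 libraries and 6 of 27 with 16 (22.2%, against 8.03% of all genes). Cyp2a5 peaked at 7.7 h (amplitude 1.01 log2, adjusted p = 0.00251) and Cyp2e1 at 6.5 h (amplitude 0.57 log2, adjusted p = 0.0207), Cyp2g1 at 3.64 h, and in the dark Cyp2f2 at 16.1 h, Cyp3a16 at 16.15 h and Cyp2b9 at 20.54 h. Of the 16 libraries, Cyp2b9 was high in ZT22 number 2 alone. With all 18 libraries it was not called by limma voom with sample weights (adjusted p = 0.622). Cyp2a5 was not called with 18 libraries (adjusted p = 0.42). Nr1i3, the gene of the xenobiotic receptor CAR, had an amplitude of 0.84 log2 (SE 0.16), a peak at 12.0 h (SE 0.71 h) and an adjusted p of 0.00882 with 16 libraries. Nmrk1, a nicotinamide riboside kinase, peaked at 8.8 h (adjusted p = 0.00176), and Nampt, the better known enzyme of NAD salvage, was not called for a 24 h rhythm (adjusted p = 0.112 with 16 libraries). Lipe and Pnpla2, the lipases that release fatty acids from triglyceride, peaked at 8.3 and 5.7 h (adjusted p = 0.0195 and 0.0395). Wee1, a cell cycle kinase gene known as a clock target, peaked at 9.1 h with 16 libraries (amplitude 1.2 log2, adjusted p = 0.00414).

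In the first part of darkness, G0s2 peaked in both fits. G0s2 (chr1:193272161-193273217), the inhibitor of the lipase Pnpla2, stood at 9.6, 10.3 and 14.6 CPM at ZT2, 3.08, 30 and 31 at ZT6, 92.7, 60 and 68.9 at ZT10, 136, 158 and 334 at ZT14, 221, 62.5 and 155 at ZT18, and 3.4, 29.2 and 37.7 at ZT22. It was lowest at ZT2 and, in the 2 livers that stand apart, at ZT6 and ZT22, and all 6 values at ZT14 and ZT18 exceeded those of ZT2 and ZT6. G0s2 had an amplitude of 2.16 log2 (SE 0.31), a peak at 14.6 h (SE 0.54 h) and an adjusted p of 0.00857 (3.38e-05 with 16 libraries). Of 18 lipid droplet and lipase genes, 1 was called with 18 libraries (G0s2, 5.56%) and 8 of 17 with 16 (47.1%). Over all genes the shares were 0.479% and 8.03%. Next to G0s2, Plin5 (15.6 h), Plin2 (18.6 h) and Plin3, which coat droplets, Mgll (16.7 h), the monoglyceride lipase, and Abhd5, the activator of Pnpla2, peaked in the dark, and Lipe and Pnpla2 in the light. Plin2 stood at 437 and 750 CPM in the 2 livers that stand apart and from 66.8 to 398 CPM in the other 16. With 16 libraries it had an amplitude of 0.82 log2 (SE 0.13), a peak at 18.6 h (SE 0.60 h) and an adjusted p of 0.00267. Srebf1, which switches on fatty acid synthesis, peaked at 15.5 h (amplitude 0.61 log2, adjusted p = 0.0316), Acly at 19.1 h, Pnpla3 at 19.2 h and Elovl5 at 21.8 h. These were 4 of 19 fatty acid synthesis genes with 16 libraries (21.1%), and 0 were called with 18. Fasn, the fatty acid synthase, was not called (adjusted p = 0.0805 with 16 libraries), with values from 39.2 to 2250 CPM. Khk and Pfkl, enzymes of fructose and glucose use, peaked at 15.1 and 17.1 h with 16 libraries (adjusted p = 0.0484 and 0.0471). Of 24 genes of glucose, fructose and galactose use, 6 were called with 16 libraries and 0 with 18, and Pfkfb3, the one that peaked in the light, did so at 3.5 h. Angptl8, a feeding-induced relative of Angptl4, peaked at 14.6 h with an amplitude of 1.75 log2 (adjusted p = 0.0187). Ppp1r3c, which brings a phosphatase to glycogen, peaked at 17.6 h (adjusted p = 0.00586).

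Further genes of this window were called in both fits. Tsku, which encodes a protein secreted by the liver, had an amplitude of 1.5 log2 (SE 0.24), a peak at 12.5 h (SE 0.58 h) and an adjusted p of 0.0151 (0.00219 with 16 libraries). Chka, the choline kinase, had an amplitude of 1.27 log2 (SE 0.23), a peak at 17.2 h (SE 0.64 h) and an adjusted p of 0.0342 (0.00386 with 16 libraries). Gldc, of the glycine cleavage system, had an amplitude of 1.05 log2 (SE 0.19), a peak at 16.8 h (SE 0.70 h) and an adjusted p of 0.0336 (0.00117 with 16 libraries). Lrfn3 stood at 19.4 to 27.1 CPM at ZT14 and ZT18 and at 3.6 to 9.31 CPM in the light, without overlap, and had an amplitude of 1.17 log2 (SE 0.16), a peak at 16.9 h (SE 0.52 h) and an adjusted p of 0.00439 (3.84e-05 with 16 libraries). Id3 (chr4:136143497-136145755), an inhibitor of basic helix-loop-helix factors, was at 25.3, 34.5 and 41.8 CPM at ZT2, 50.7, 36 and 31.3 at ZT6, 82.6, 56.2 and 67.2 at ZT10, 129, 148 and 187 at ZT14, 85.6, 65.4 and 53.5 at ZT18, and 33.4, 64.8 and 50.1 at ZT22. Its values at ZT14 were above all others. Id3 had an amplitude of 0.97 log2 (SE 0.14), a peak at 14.4 h (SE 0.56 h) and an adjusted p of 0.00685 (0.000662 with 16 libraries). Rps28, a ribosomal protein gene, had an amplitude of 1.13 log2 (SE 0.20), a peak at 14.6 h (SE 0.68 h) and an adjusted p of 0.0308 (0.00122 with 16 libraries), but near-identical copies in the genome make its counts uncertain, and of 31 other ribosomal protein genes 0 were called with 18 libraries and 1 (Rps3) with 16.

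Protein folding genes that were called peaked mostly in the middle of the night. Stip1 (chr19:7020702-7039967), a co-chaperone that links HSP70 to HSP90, stood at 45, 48.9 and 41.7 CPM at ZT2, 38.3, 25.7 and 31.6 at ZT6, 43.3, 40.6 and 55.9 at ZT10, 58, 116 and 75 at ZT14, 81.9, 114 and 84 at ZT18, and 29.1, 59.2 and 58 at ZT22. The 6 values at ZT14 and ZT18 were all above the 9 of the light phase. Stip1 had an amplitude of 0.71 log2 (SE 0.13), a peak at 16.8 h (SE 0.68 h) and an adjusted p of 0.0308 (0.00122 with 16 libraries). Of 27 heat shock and co-chaperone genes, 1 was called with 18 libraries and 10 with 16, against the 0.479% and 8.03% of all genes. Of these 10, 9 peaked between 16.31 and 19.24 h, among them Bag3 (16.3 h), Hsph1 (17.0 h), Fkbp4 (17.5 h), Hsp90ab1 (17.6 h) and Hsp90aa1 (19.2 h), and Fkbp5 at 11.6 h. Hsp90aa1 stood at 421 and 477 CPM in the livers that stand apart and from 41.2 to 218 CPM in the others, and its fitted peak moved from 22.6 to 19.2 h when these were left out. Of 27 endoplasmic reticulum chaperone genes, 0 were called with 18 libraries and 10 with 16, all 10 peaking between 16.25 and 19.01 h. Hyou1 had an amplitude of 1.11 log2 (SE 0.18), a peak at 17.8 h (SE 0.66 h) and an adjusted p of 0.00349, Pdia4 an amplitude of 1.0 log2 (SE 0.16), a peak at 18.6 h (SE 0.61 h) and an adjusted p of 0.00285, and Hspa5, the gene of BiP, an amplitude of 0.75 log2 (SE 0.17), a peak at 18.7 h (SE 0.93 h) and an adjusted p of 0.0271. At ZT18, Hspa5 stood at 502, 1220 and 740 CPM, and at ZT10 at 223, 254 and 275 CPM.

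Tubulin and actin genes that were called also peaked in darkness. Tubb2a (chr13:34074274-34078007), a beta tubulin gene, stood at 46.6, 17.3 and 42.9 CPM at ZT2, 27.1, 16 and 15.9 at ZT6, 25.5, 9.34 and 35.9 at ZT10, 117, 190 and 88.4 at ZT14, 158, 275 and 187 at ZT18, and 53, 232 and 113 at ZT22. All 9 dark values exceeded all 9 light values. Tubb2a had an amplitude of 1.86 log2 (SE 0.23), a peak at 18.3 h (SE 0.45 h) and an adjusted p of 0.00253 (0.00015 with 16 libraries). Tubb2b (chr13:34126748-34130466), its neighbour and close copy, was near the limit of detection by day (0 to 0.488 CPM) and at 2.3, 5.76 and 4.92 CPM at ZT18, with an amplitude of 2.57 log2 (SE 0.46), a peak at 18.4 h (SE 0.68 h) and an adjusted p of 0.0339 (8.64e-05 with 16 libraries); reads shared between such copies may be split by counting. Of 12 tubulin genes, 2 were called with 18 libraries and 6 with 16, and of these 6 all peaked between 18.47 and 22.73 h. The Tubb2a promoter window held the letters TGACGTCA, a cAMP response element present in 1.79% of all windows and in 3.34% of tested genes with a window. It is shown because Tubb2a leads this group, and capitals mark it, 59 bases before the start.
Tubb2a: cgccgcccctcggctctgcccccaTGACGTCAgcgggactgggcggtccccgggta
It lies at chr13:34078036-34078091 on the minus strand. Of 12 genes of the actin and serum response factor list, 0 were called with 18 libraries and 4 with 16 (33.3%, against 8.03% of all genes). They were Mical2 at 17.0 h, Actg1 at 17.3 h, Srf at 17.8 h and Zyx. In the fit of 18 libraries, the peaks of Mical2 and Zyx moved by over 6 h when certain single libraries were left out. Mical2 stood at 215 and 194 CPM in the livers that stand apart and from 9.1 to 29.6 CPM in the other 16.

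After the middle of the night, Ppard, Clpx, Dtx4 and Ndrg1 peaked in both fits. Ppard (chr17:28232700-28301474), the gene of the fatty acid sensor PPAR delta, stood at 6.61, 7.1 and 7.21 CPM at ZT2, 7.19, 7.58 and 4.1 at ZT6, 8.53, 5.33 and 6.32 at ZT10, 12.5, 13.6 and 12.1 at ZT14, 19.6, 51.3 and 32.7 at ZT18, and 7.2, 33.9 and 22.4 at ZT22. Its 3 values at ZT18 were above all 9 light values. Ppard had an amplitude of 1.26 log2 (SE 0.18), a peak at 18.7 h (SE 0.60 h) and an adjusted p of 0.00814 (0.000108 with 16 libraries). Clpx, of the mitochondrial ClpXP protease, had an amplitude of 1.14 log2 (SE 0.19), a peak at 18.5 h (SE 0.66 h) and an adjusted p of 0.0269 (0.000307 with 16 libraries). Dtx4, a ubiquitin ligase gene, had an amplitude of 1.17 log2 (SE 0.18), a peak at 18.7 h (SE 0.55 h) and an adjusted p of 0.0119 (0.0026 with 16 libraries). Ndrg1, a stress-induced gene, peaked latest, with an amplitude of 1.15 log2 (SE 0.22), a peak at 23.1 h (SE 0.75 h) and an adjusted p of 0.0475 (0.00801 with 16 libraries), and its ZT22 values of 16 to 32.1 CPM were above all other times. With 16 libraries, Pdk4, which blocks pyruvate use, had an amplitude of 1.31 log2 (SE 0.20), a peak at 18.7 h (SE 0.50 h) and an adjusted p of 0.00154, and stood at 14.1 and 83.5 CPM in the livers that stand apart, against 1.44 to 14.9 CPM. Crat, the carnitine acetyltransferase, had an amplitude of 0.97 log2 (SE 0.11), a peak at 18.6 h (SE 0.41 h) and an adjusted p of 0.00015. Of 38 fatty acid oxidation and ketone body genes, 0 were called with 18 libraries and 7 with 16 (18.4%, against 8.03% of all genes). Of these 7, 5 peaked in the dark (Crat, Pdk4 and Fgf21 after 18 h, Acsl1 and Slc25a20 before it) and 2 in the light (Cpt1a and Vnn1). Among all called genes, 702 of 1220 peaked in darkness, so this split is near that of all of them. Insig2, of cholesterol control, peaked at 19.4 h (adjusted p = 0.0153 with 16 libraries), and Hmgcs1, an enzyme of cholesterol synthesis, after lights on at 1.0 h (adjusted p = 0.0432). Of 26 cholesterol genes, 5 were called with 16 libraries (19.2%, against 8.03% of all genes) and 0 with 18. Cbs, of sulfur amino acid use, peaked at 19.5 h (adjusted p = 0.00262 with 16 libraries). Gclc, the first enzyme of glutathione synthesis, peaked at 17.7 h (adjusted p = 0.0108).

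**Figure D5:**
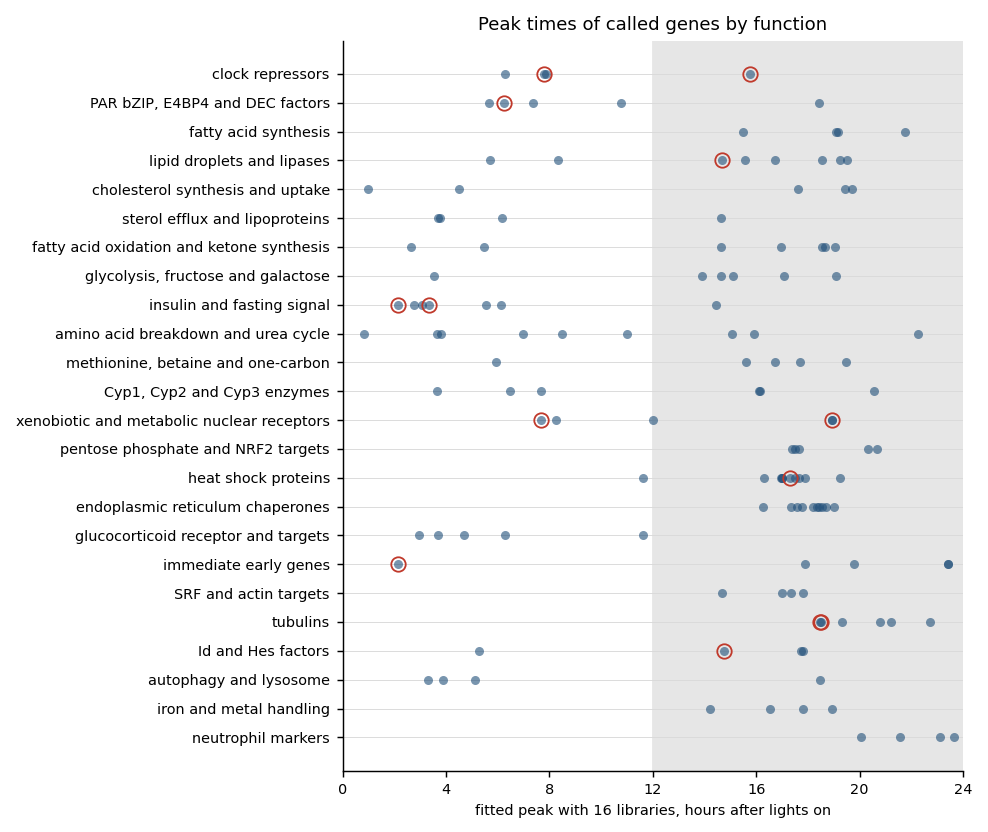
Fitted peak times (hours after lights on, 16-library fit) of the genes called in each gene list with at least 4 such genes; each point is a gene, red rings mark genes also called with 18 libraries, and grey marks darkness. Heat shock (9 of 10), endoplasmic reticulum and tubulin genes lie in the dark, and the 5 glucocorticoid targets in the light.

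Smaller groups were read against the 8.03% of all genes called with 16 libraries, of which 702 of 1220 peaked in darkness. Of 17 pentose phosphate and NRF2 target genes 0 were called with 18 libraries and 5 with 16 (29.4%; Gclc, Keap1, G6pdx, Hmox1 and H6pd), all with peaks between 17.37 and 20.66 h. Hmox1 was near the threshold (adjusted p = 0.0482 with 16 libraries), and its fitted peak lay over 6 h from that with 18. Iron and metal genes had 4 of 20 called (Slc11a2, Slc30a10, Tfrc and Hjv), all with peaks in darkness and none with 18 libraries. Secretory pathway genes had 3 of 28 called (10.7%), a share near that of all genes. Of 15 Id, Hes and related genes, 1 was called with 18 libraries (Id3) and 4 with 16. Of 25 immediate early genes, 1 (Egr1) was called with 18 libraries. With 16 libraries 5 of 23 were called (21.7%), Egr1 and, with peaks in the dark, Ier5, Btg1, Fos and Klf6. Of 43 amino acid genes 9 were called with 16 libraries, 6 in the light and 3 in darkness, and of 23 one-carbon genes 5, of which 4 peaked in darkness. Of 34 Ugt, Sult and Gst genes 3 were called (8.82%, near the share of all genes), Sult2a8 at 6.3 h, Sult1b1 at 8.56 h and Gstt1 at 14.73 h, and of 20 transfer RNA synthetase genes 3, Dars at 3.24 h, Tars at 19.1 h and Wars at 19.67 h, with 16 libraries and 0 with 18.

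Several liver functions showed few or no calls. With 16 libraries, where 8.03% of all genes were called, 0 of 20 citric acid cycle genes, 0 of 30 plasma and coagulation protein genes, 0 of 13 mitochondrially encoded genes, 1 of 30 nuclear oxidative phosphorylation genes, 1 of 28 proteasome genes and 1 of 20 bile acid genes were called. In lists of 13 to 30 genes, 0 or 1 call cannot be told from the share of all genes, and this was not tested. Median amplitudes of the 6 lists were 0.22, 0.21, 0.45, 0.20, 0.17 and 0.32 log2 units, against 0.30 over all genes. Those of the mitochondrially encoded and bile acid genes were thus not lower. A difference over the 6 times was called in 4 of 20 bile acid genes with 16 libraries, against 9.38% of all genes. Alb, the gene of serum albumin, ran from 33000 to 90500 CPM with overlapping times (adjusted p = 0.673 with 16 libraries). Cyp7a1, the rate-limiting enzyme of bile acid synthesis, had a fitted amplitude of 0.86 log2 at 8.2 h without a call for 24 h (adjusted p = 0.0864), though its 6 time means differed (adjusted p = 0.0106), all with 16 libraries. Of 8 cold-inducible RNA-binding genes, 0 were called in either fit; Cirbp had an adjusted p of 0.364 with 16. Markers of other cells were also read. With 16 libraries, 1 of 20 macrophage markers, 4 of 8 neutrophil markers, 2 of 15 T and NK cell markers, 0 of 14 endothelial and 0 of 14 stellate cell markers were called for 24 h, and none of them with 18. The endothelial markers were not flat, since 7 of 14 were called over the 6 times with 16 libraries, against 9.38% of all genes. The 4 neutrophil markers (S100a8, S100a9, Cxcr2 and Ltf) peaked between 20.06 and 23.64 h, and neutrophil markers summed to 313.5 and 336.1 CPM in the livers that stand apart and to 4.06 to 32.5 CPM in the others. Of the 16, ZT22 number 2 had the highest sum and also the highest macrophage marker mean (5.34 log2 CPM). ZT22 number 3 stood at 17.5 CPM, the ZT2 livers at 21.0, 16.7 and 15.3 CPM, and the rest at 11.5 CPM or less. Up to 8 of these markers had no counts in a library, so the peaks rest on low counts. Red cell markers summed to 45.7 to 702 CPM, and 1 of 6, Hbb-bt, was called in both fits, with an amplitude of 2.32 log2 (SE 0.43), a peak at 17.3 h (SE 0.72 h) and an adjusted p of 0.0413 (0.0153 with 16 libraries). With 16 libraries 2 of 6 were called, the other being Klf1, which peaked in the light at 8.07 h.

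Darkness against light gave each gene a signed difference, the mean log2 value at ZT14, ZT18 and ZT22 minus that at ZT2, ZT6 and ZT10. With 18 libraries, 23 genes were higher in darkness (0.151%) and 14 lower (0.0918%), and with 16, 772 were higher (5.08%) and 563 lower (3.7%). Leaving out ZT6 number 1 alone gave 734 calls in both directions, ZT22 number 1 alone 191, and each other library 19 to 39, against 37 with all 18. The most negative called differences with 18 libraries were those of Dbp (-4.59, SE 0.53), Mup12, a major urinary protein gene with near-identical copies, Gapdh, Per3 (-2.68, SE 0.37) and Ciart (-2.52, SE 0.44), and the most positive those of Npas2 (4.81, SE 0.66), Tubb2b (4.05, SE 0.64), Loxl4 and Tubb2a (2.59, SE 0.34). The called members of some lists were mostly higher in darkness with 16 libraries. Of the heat shock list 12 of 27 genes were higher in darkness and 0 lower, of 27 endoplasmic reticulum chaperones 12 and 1, of 12 tubulins 7 and 0, of 12 genes of the actin list 5 and 0, and of 17 lipid droplet genes 6 and 2. Their median differences were 0.46, 0.57, 0.75, 0.67 and 0.48 log2 units, against 0.0 over all genes. The list of the glucocorticoid receptor and its targets had 1 higher and 4 lower with a median of -0.27, and autophagy genes 3 higher and 4 lower with a median of 0.04.

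The test of any difference between the 6 times called 55 genes with 18 libraries (0.361%) and 1426 with 16 (9.38%). Without ZT6 number 1 alone there were 1728, without ZT22 number 3 alone 1475, without ZT22 number 1 alone 348, and without each other library 1 to 55, so this count rests on single libraries. Of the 55, 30 were also called for a 24 h rhythm. Among the 25 others, Mpc1, a subunit of the mitochondrial pyruvate carrier, stood at 17.7, 19 and 20.7 CPM at ZT2, 30.1, 27.7 and 29.3 at ZT6, 16.4, 20.3 and 15.4 at ZT10, 14.6, 14.1 and 12.3 at ZT14, 21.2, 16.5 and 20.4 at ZT18, and 28.4, 29.8 and 34.7 at ZT22. It was high at ZT6 and ZT22 and lowest at ZT14, with no overlap between ZT22 and ZT14 (adjusted p = 0.0284 over the 6 times, and 0.00533 with 16 libraries). Mrto4, a ribosome assembly factor, was at 16.3, 18.1 and 13.5 CPM at ZT2, 11.8, 11.8 and 12.9 at ZT6, 24.6, 20.6 and 25.8 at ZT10, 20.5, 25.6 and 24.8 at ZT14, 26.5, 23.7 and 24.4 at ZT18, and 12.1, 14.9 and 10.6 at ZT22, with ZT10, ZT14 and ZT18 above ZT6 and ZT22 in every library (adjusted p = 0.0337, and 0.00989 with 16 libraries). Depp1, a fasting-induced gene, stood at 154, 206 and 90.8 CPM at ZT2, above its 3.14 to 70.2 CPM at all other times (adjusted p = 0.0363, and 0.00785 with 16 libraries). Herc6, an interferon-stimulated gene, stood at 33, 20.7 and 13.4 CPM at ZT6 and at 4.7, 6 and 5.13 CPM at ZT14 (adjusted p = 0.0402). Interferon-stimulated genes were high in the 2 livers that stand apart (mean log2 CPM of 6.9 and 6.42, against 2.75 to 5.13), and Herc6 remained called without them (adjusted p = 0.0125). Gapdh, often used as a reference gene, was also called (adjusted p = 0.0148, and 2.57e-05 with 16 libraries), and its values are given among the closing observations because its counts fell into 2 levels.

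A 12 h component beside the 24 h one was called by edgeR in 0 genes with 18 libraries (0.0%, lowest adjusted p = 0.585, and 1263 genes at an unadjusted p under 0.05), in 3 genes with 16 (0.0197%) and in 30 by DESeq2 with 18. The 3 were Tgfb1, Rpl21-ps8 and Gm17828. The smallest p among the rest belonged to Adck5, Dnajb9, Rasgrp3, Pstpip2 and Rasip1, none of them called. Dnajb9, an endoplasmic reticulum co-chaperone, stood at 18.7, 19.8 and 28.4 CPM at ZT2, 52.3, 34.8 and 42.6 at ZT6, 17, 16.9 and 15.9 at ZT10, 33.8, 37.3 and 18.6 at ZT14, 43.5, 70.3 and 51.9 at ZT18, and 35.7, 36.5 and 35.2 at ZT22. High values at ZT6 and at ZT18 were parted by low ones at ZT10, with no overlap between ZT10 and either of them (12 h amplitude 0.64 log2, unadjusted p = 0.000316, adjusted p = 0.585). Over the 6 times Dnajb9 was called (adjusted p = 0.0402).

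Kidney of the same control group, 18 libraries taken at the same times, was the nearest comparison. A difference of rhythm between liver and kidney was called by edgeR in 0 of 18025 genes with all libraries (0.0%, lowest adjusted p = 0.0501, 2424 genes at an unadjusted p under 0.05), in 164 of 18310 (0.896%) without the 2 livers that stand apart, and by DESeq2 in 145 with all libraries. Leaving out liver ZT6 number 1 alone gave 413, liver ZT22 number 1 alone 86, and each other liver 0 to 7. Kidneys ZT6 number 1 and ZT22 number 1 had the highest means of interferon-stimulated genes among the kidneys (5.86 and 5.5 log2 CPM), as the livers of those numbers had among livers. Fitted in 1 model, Arntl peaked at 18.2 h in both, with amplitudes of 1.61 log2 in liver and 1.69 in kidney (adjusted p of the difference = 0.998), Nr1d1 at 3.62 and 3.31 h (adjusted p = 0.945), and Dbp at 6.4 and 6.73 h (adjusted p = 0.631). Fitted peaks lay farther apart for Cry1 (15.6 h in liver, 14 h in kidney), Ciart (8.17 and 6.06 h), Bhlhe40 (14.3 and 10.7 h) and Nfil3 (20.2 and 16.3 h), and farthest for Rora (21.1 and 7.78 h, unadjusted p = 0.00169, adjusted p = 0.2) and Arntl2 (6.09 and 23.2 h), with liver amplitudes of 0.185 and 0.64 log2. Of the 20 clock genes, none was called for a difference in either fit, and a p that misses the threshold does not show that the tissues are alike. Npas2 had amplitudes of 3.34 log2 in liver and 1.97 in kidney (adjusted p = 0.315, and 0.0972 without the 2 livers). Clic3, an intracellular chloride channel gene, peaked at 16.6 h in liver with an amplitude of 2.43 log2 against 0.53 in kidney, and Palld, the gene of the actin-binding palladin, at 15.7 h with 0.90 against 0.11 (adjusted p = 0.0501 for both, and 0.00132 and 0.00588 without the 2 livers). Adcy1, an adenylyl cyclase gene, peaked at 23.6 h in liver with 2.41 against 0.49 in kidney (adjusted p = 0.0501, and 0.00389 without the 2 livers). Palld in liver stood at 22.1, 26.9 and 23.6 CPM at ZT2, 21.2, 32.3 and 32.8 at ZT6, 46.8, 24.8 and 38.1 at ZT10, 58.2, 91.8 and 62.4 at ZT14, 77.3, 103 and 74.4 at ZT18, and 16.8, 31 and 39.1 at ZT22, with ZT14 and ZT18 above all other values.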

How the data were processed

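RNA from 18 control livers was sequenced at 3 per time point after Trizol extraction and NEBNext Ultra library preparation, per the labels' protocols. The deposited table holds raw counts per gene for 108 libraries, made by the authors with HISAT2 2.0.4 and featureCounts 1.5.0-p3 on GRCm38 (mm10), per the submitters' processing notes; the strand setting is not given in the sources used here. Total counts per library ran from 14428000 to 23428000. Of 52083 gene identifiers shared with GENCODE M21, 1494 (2.87%) had the same start and end in the table, so gene positions given here are those of GENCODE M21 on GRCm38 and not the table's. No pair of livers of 1 time agreed within sampling noise (lowest chi-square per degree of freedom 35.8).

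Genes passing filterByExpr over the 6 times (minimum count 10, minimum total 15) were normalised by TMM and fitted with edgeR 4.0.16 (R 4.3.3), with the robust quasi-likelihood test and Benjamini-Hochberg adjustment over all genes tested; a call is an adjusted p under 0.05. The models were a cosine and sine of 24 h, a factor of 6 times, darkness against light, a 12 h pair added to the 24 h pair, and an interaction of the 24 h pair with tissue over 18 livers and 18 control kidneys. The scripts were tested on simulated data. CPM values use TMM library sizes. DESeq2 1.42.0, limma 3.58.1 and the other alternatives appear in the closing section.

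The members and gene lists were chosen with earlier results of these data known. Genes named by rule were the clock genes, the 6 with the largest amplitude per 6 h window called in both fits (mean log2 CPM of at least 2, no predicted genes), up to 4 with the smallest p per list, the 5 with the smallest p of each other comparison, and the 3 most alike and most opposite to Arntl and to Dbp; other list members named beside a count or peak were chosen after their values were seen. Some genes that the rule selects are not reported here.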

Additional observations from a re-analysis of the deposited data

How the results depend on the processing

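With 18 libraries the calls were 73 genes for the 24 h rhythm, 55 for the 6 times, 37 for darkness against light, 0 for 12 h and 0 for liver against kidney. Another tool gave 685, 3261, 420, 30 and 145 (DESeq2) and 3394, 6668, 2296, 11 and 1413 (limma voom with sample weights). Without flox ZT6 number 1 and flox ZT22 number 1 the counts were 1220, 1426, 1335, 3 and 164, and without these numbers in both tissues, a choice made after seeing the data, liver against kidney gave 209. All 36 liver libraries together gave 128 and 682 for the first 2 counts. DESeq2 size factors gave 5 for liver against kidney and kept the other counts within 1.5 times, as did leaving out the filter for all 5. The replicate block gave 42, 19, 27, 0 and 4. Of 45 same-numbered pairs of livers 11 correlated over 0.1 (median 0.0127), and of 18 pairs of liver and kidney of 1 time and number 8 did (median 0.073, highest 0.215), with 11 livers correlating best with their own number. The rule that every pair be over 0.1 was not met in either, so the numbers were not taken as pairs. A block by time and number, added after seeing the data, left liver against kidney at 0. Leaving out 1 library at a time gave 24 to 726, 1 to 1728, 19 to 734, 0 to 0 and 0 to 413. The share of dark against light calls that were higher in darkness was 62.2%, and 51.7% with voom weights. Among 152 named genes, DESeq2 lost 0 of the 31 calls made with 18 libraries, no filter lost 3, the replicate block 9, voom weights 1 and all 36 livers 2. Fitted peaks moved by over 6 h for 5 genes. For Mical2 the amplitude was 0.693 log2 (peak 17.0 h) without the 2 livers that stand apart, 0.69 (17.64 h) with voom weights and 0.609 (7.5 h) without ZT22 number 1, within a range of 0.609 to 1.248 over single libraries left out. Hmox1 had 0.933 (17.37 h) without the 2 livers and 0.766 (16.13 h) with voom weights, G6pc 0.28 (16.35 h) and Cyp2b9 1.109 (16.36 h) with voom weights, and Zyx 0.01 (4.39 h) without ZT6 number 3 and 0.293 (11.09 h) without ZT22 number 1, within 0.01 to 0.388. The cause of these changes was not tested. Depth limits genes such as Npas2 and Tubb2b, which had few counts by day.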

Other observations

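Gapdh, which encodes a glycolytic enzyme and is often used as a reference, stood at 263, 408 and 578 CPM at ZT2, at 158 CPM in ZT6 number 1, and at 4.52 to 28.2 CPM in the other 14 livers. Many near-identical pseudogene copies make its counts uncertain. Among all tested genes, 7 of 764 pseudogenes (0.916%) and 64 of 13184 protein-coding genes (0.485%) were called for a 24 h rhythm with 18 libraries, and 80 of 766 (10.4%) and 1058 of 13072 (8.09%) with 16.

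Cyp2b9, a P450 gene of female-biased liver expression, stood at 130 and 113 CPM in the 2 livers that stand apart and at 106 CPM in ZT22 number 2, and at 6.21 CPM or less in the other 15. ZT22 number 2 also had the next highest macrophage marker level after those 2 livers (mean log2 CPM of 5.34). Mitochondrially encoded genes took 3.26% and 2.74% of the counts in the 2 livers and 5.08% to 30.63% in the others.

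Across the 18 libraries, the genes most alike to Arntl in log2 CPM were Clpx (Pearson r = 0.928), Tubb2a (0.872) and Wrnip1 (0.868), and the most opposite were Dbp (r = -0.89), Nr1d2 (-0.875) and Anxa7 (-0.838). Most alike to Dbp were Mcm10 (r = 0.931), Per3 (0.925) and Tef (0.908), and most opposite Clpx (-0.942), Denn2b (-0.926) and Cdkn1a (-0.922). These are descriptions over 18 livers that share time of day, depth and the 2 that stand apart, picked as extremes among all genes. With 16 libraries each kept its sign, with Clpx at 0.949 to Arntl and -0.95 to Dbp.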
